A study of Mus musculus with 4 samples.

Results

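The Armcx, Bhlhb9 and Gprasp genes encode proteins with a shared armadillo-repeat domain, and 10 of them were measured among 18193 genes: Armcx1 to Armcx6, Bhlhb9 (also called Gprasp3), Gprasp1, Gprasp2 and Armc10. They were taken by their symbols, with all 14 probe sets that carry exactly 1 of these symbols, and each gene was represented by its probe set of highest mean level. The family was selected on the levels of Bhlhb9 and Armcx1 in these same samples, already known to be low in the hairpin groups, so the levels below are a description of these arrays and support nothing by themselves. On 4 arrays the study profiled total RNA of SVEC4-10 cells, a mouse lymph node endothelial line transformed by SV40, to find transcripts that follow the loss of the actin-oxidising enzyme Mical2. The untreated pool was of cells without vector, and the empty-vector pool of cells that had received the pLENTI6/Block-iT lentiviral vector with no insert. In the remaining pools the vector carried a short hairpin RNA against Mical2 or Mical3, and cells with a vector were kept under blasticidin. Each pool combined RNA of 3 biological replicates and was run on 1 array, 1 per group, so no spread between replicates can be seen and no test was made.

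Most of these genes sit in clusters on the X chromosome and arose in placental mammals by duplication, with autosomal Armc10 as the presumed ancestor. Armcx proteins and Armc10 lie at mitochondria, and mouse Armcx1 and Armcx3 are known to act on mitochondrial transport in neurons. Gprasp1 and Gprasp2 bind the tails of G protein-coupled receptors and sort them towards lysosomes, and Bhlhb9 belongs to the same protein family in spite of its helix-loop-helix name. The family is best known from brain, where most members are abundant.

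The labels come with a limit. Mical2, on 2 probe sets, read 5.53 and 5.53 in the pool labelled Mical2 knock-down, 4.64 and 5.14 in the empty-vector pool and 5.33 and 5.60 in the untreated pool, and Mical3 read 7.24 in the pool labelled Mical3 knock-down, 7.29 in the empty-vector pool and 7.39 in the untreated pool. Neither target was thus clearly lower under its own hairpin. Mical3 was lowest in the pool labelled Mical2, at 6.83, and Mical2 was highest in the pool labelled Mical3 on both probe sets. The hairpin pools are named by their labels throughout. All levels are log2 values, and a gene was called higher or lower where its log2 level was 1 or more (2-fold) away from each control in 1 direction and reached 5.41, the median level over all probe sets and arrays and used as a floor, on at least 1 compared array. Of 14 endothelial markers, between 4 and 6 reached that floor on an array. Pecam1 (3.46 to 3.88), Cdh5 (3.95 to 4.50) and Vwf (3.83 to 3.98) were below it on all 4 arrays, while Flt1 (7.70 to 7.76) and Eng (7.31 to 7.58) were above it. Mmrn1, a lymphatic endothelial marker, was the 1 marker called for the hairpins, at 6.67 in the pool labelled Mical2 and 6.56 in the pool labelled Mical3 with 4.47 in the empty-vector pool and 4.82 in the untreated pool.

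The promoters of the 2 members with the largest drops in the pool labelled Mical2, Bhlhb9 and Armcx1, are shown first, because the family's promoters are related in different ways. They are RefSeq windows of GRCm38.p6, from 250 bases before to 50 bases after the annotated start, and 9 of the 10 members had an entry, all but Armcx3. Bhlhb9 (chrX:135885601-135885900, plus strand) and Gprasp2 (chrX:135838784-135839083, plus strand) have nearly the same promoter. Capitals mark 1 of the 2 longest runs that both share.
Bhlhb9: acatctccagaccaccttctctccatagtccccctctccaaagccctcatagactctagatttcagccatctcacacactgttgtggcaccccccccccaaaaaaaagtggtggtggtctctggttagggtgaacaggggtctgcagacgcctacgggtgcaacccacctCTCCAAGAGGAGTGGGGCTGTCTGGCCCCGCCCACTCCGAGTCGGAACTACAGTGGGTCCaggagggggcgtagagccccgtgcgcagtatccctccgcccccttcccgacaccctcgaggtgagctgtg
Gprasp2: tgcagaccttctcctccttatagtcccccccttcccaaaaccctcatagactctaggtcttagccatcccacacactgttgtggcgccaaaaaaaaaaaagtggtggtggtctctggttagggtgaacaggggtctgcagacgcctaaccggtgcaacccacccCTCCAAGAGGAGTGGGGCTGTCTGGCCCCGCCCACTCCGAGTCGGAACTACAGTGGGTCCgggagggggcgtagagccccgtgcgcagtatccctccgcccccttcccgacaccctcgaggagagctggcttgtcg
The 2 windows were identical at 272 of 312 aligned columns (87.2%), and the run in capitals has 60 bases, as has the other, which begins 1 base after it. Armcx5 and Gprasp1 have 1 window in common (chrX:135742442-135742741, plus strand), since both genes start there. Every other pair of members had between 44.5% and 57.3% identity, the highest being Armcx1 with Armcx6, whose longest shared run had 12 bases.

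Armcx1 (chrX:134717688-134717987, plus strand) has another kind of start. Capitals in its window mark TGACG, the core of the site that CREB factors bind, and CACGTGA, which holds the E-box CACGTG.
Armcx1: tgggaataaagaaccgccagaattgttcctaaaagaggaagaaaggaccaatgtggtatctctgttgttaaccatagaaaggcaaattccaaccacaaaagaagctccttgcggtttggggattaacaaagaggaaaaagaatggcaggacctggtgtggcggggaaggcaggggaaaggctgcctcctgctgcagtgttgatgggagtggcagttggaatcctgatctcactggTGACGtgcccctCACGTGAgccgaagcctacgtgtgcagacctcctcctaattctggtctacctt
This paired element was noticed on reading the promoters, and a short element common to Bex, Tceal and Gprasp genes has been described in mammals. It was searched on both strands as TGACGNNNNNNNCACGTGA and TGACGNNNNNNNNNCACGTGA, which differ by the length of the spacer (7 or 9 bases). The first stood in 0.0365% of 32851 windows and the second in 0.0183%, while CACGTG alone, which the pair contains, was in 7.15% and TGACG alone in 20.8%. Only 16 of 27025 genes with an entry held the pair at either spacing, and 12 of them are on the X chromosome. They included 3 members, Armcx1, Armcx4 and Armcx6, and 8 Bex and Tceal genes, out of 14 listed genes of the Bex, Tceal and Arxes families. Since the element was noticed in promoters already read, these counts describe it and support nothing by themselves. The pair with 6 bases on each side, in the direction of the gene and with the same capitals, reads in these 11 genes as follows.
Armcx1: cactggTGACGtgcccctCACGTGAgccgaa
Armcx4: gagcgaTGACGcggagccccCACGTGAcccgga
Armcx6: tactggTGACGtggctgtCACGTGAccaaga
Bex1: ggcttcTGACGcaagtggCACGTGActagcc
Bex3: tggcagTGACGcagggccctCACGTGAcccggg
Bex4: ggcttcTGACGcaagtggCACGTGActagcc
Tceal1: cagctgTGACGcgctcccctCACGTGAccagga
Tceal3: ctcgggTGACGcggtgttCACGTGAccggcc
Tceal5: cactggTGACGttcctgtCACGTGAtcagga
Tceal6: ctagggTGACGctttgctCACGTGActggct
Tceal8: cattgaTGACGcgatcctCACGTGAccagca
The Armcx1 pair spanned positions -15 to 4 from the start, that of Armcx4 -17 to 4 and that of Armcx6 -38 to -20. Bhlhb9, Gprasp2, Armcx2, Armc10, Armcx5 and Gprasp1 held neither the pair nor CACGTG. Of these, only Armcx5 and Gprasp1, with their common window, held TGACG. So of the 2 members with the largest drops 1 holds this element and 1 does not.

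**Figure D1:**
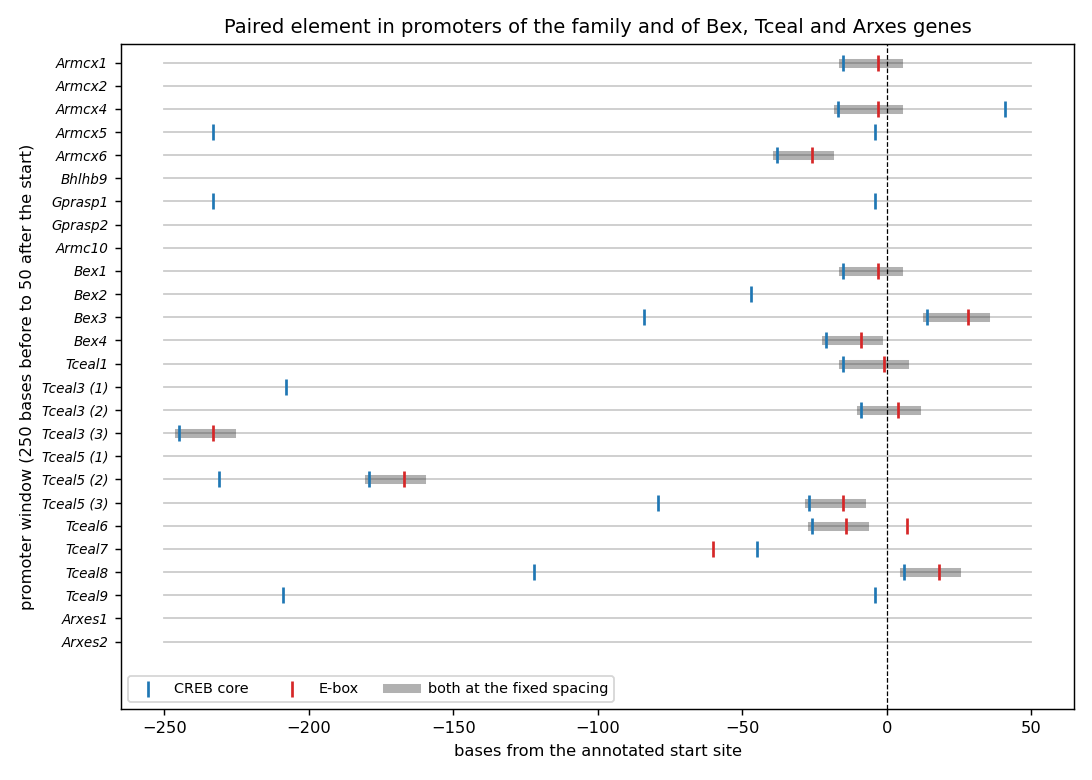
Promoter windows of family members and of Bex, Tceal and Arxes genes on the X chromosome (and Armc10), with the distance from the annotated start in bases on the x axis; numbers in brackets tell windows of 1 gene apart. Blue marks give the first base of the CREB core, red marks that of the E-box, and grey bars span both at a spacing of 7 or 9 bases; Armcx1, Armcx4 and Armcx6 carry a bar near the start and Bhlhb9 and Gprasp2 carry no mark.

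Bhlhb9, a Gprasp relative studied in neurons, was at 10.06 in the empty-vector pool and 9.65 in the untreated pool, at 6.26 in the pool labelled Mical3 and at 4.81 in the pool labelled Mical2. Both control pools stood high, the pool labelled Mical3 stood low and the pool labelled Mical2 was under the floor. The log2 differences in the pool labelled Mical2 were -5.25 from the empty-vector pool and -4.84 from the untreated pool, 38.1-fold and 28.6-fold. Since 4.81 is under the floor, where levels may be background, the difference counted only down to the floor was 4.65 from the empty-vector pool (25.1-fold) and 4.24 from the untreated pool (18.9-fold). In the pool labelled Mical3 the log2 differences were -3.80 and -3.39 (13.9-fold and 10.5-fold lower). In such bulk RNA, fewer cells of a type and less RNA per cell cannot be told apart.

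Armcx1, a mitochondrial outer membrane protein, was at 8.43 in the empty-vector pool, 8.17 in the untreated pool, 7.02 in the pool labelled Mical3 and 4.04 in the pool labelled Mical2. Its order over the arrays was that of Bhlhb9, but the pool labelled Mical3 stood much nearer to the controls. The log2 differences in the pool labelled Mical2 were -4.39 and -4.13 (21.0-fold and 17.5-fold), or 3.02 and 2.76 when counted down to the floor. In the pool labelled Mical3 they were -1.41 and -1.15 (2.66-fold and 2.22-fold lower). Between the hairpin pools, the pool labelled Mical2 was lower by 2.98 for Armcx1 and by 1.45 for Bhlhb9, or 1.61 and 0.85 counted down to the floor, so for Bhlhb9 that gap is 2-fold only on levels that may be background.

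These are the 2 members called lower in each hairpin comparison, 2 of the 8 members that reached the floor. Over all genes, 1.75% of 12072 were called lower in the pool labelled Mical2 and 2.49% of 12011 in the pool labelled Mical3. Ranked over all tested genes by the smaller of the differences from the controls, Bhlhb9 was the 5th lowest and Armcx1 the 7th lowest in the pool labelled Mical2, and they were the 20th and 223rd lowest in the pool labelled Mical3. Both comparisons use the same 2 control pools. Each of these 2 genes was read by a single probe set, so no second reading exists on these arrays. As a scale for such differences, a spread between probe sets was taken from 3076 genes with 2 probe sets at or above the floor. It is the standard deviation of their disagreement divided by the square root of 2, so it applies to a single probe set. This spread was 0.35 for the pool labelled Mical2 minus the empty-vector pool and 0.39 for the pool labelled Mical3 minus the empty-vector pool. It leaves out the error between arrays.

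**Figure D2:**
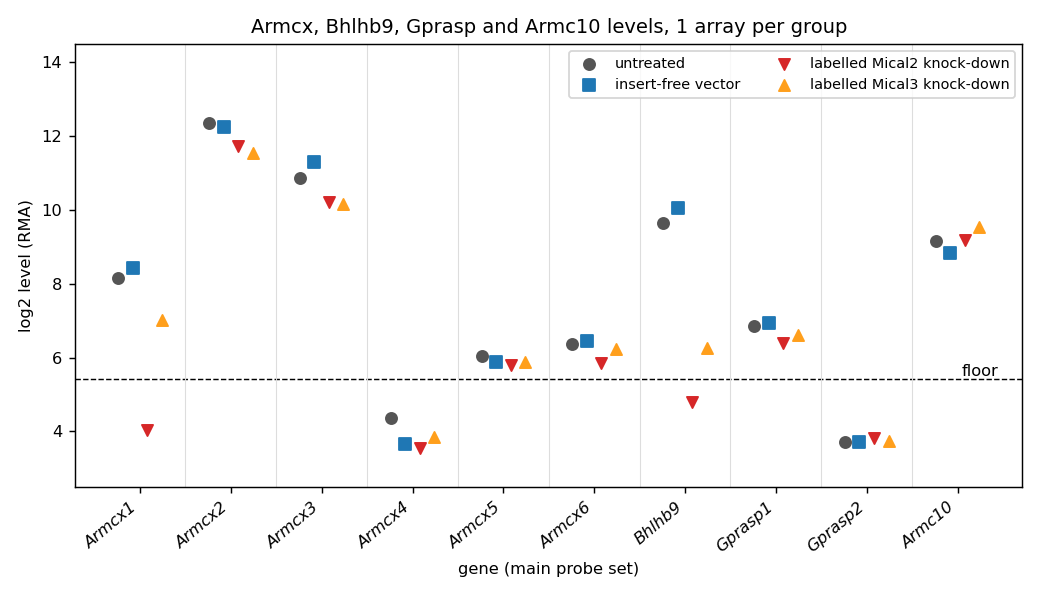
Log2 level (y axis) of each member on the 4 arrays, 1 point per array, with no error bars because each group has 1 array; the dashed line is the floor of 5.41, and levels of different probe sets should not be set against each other. Bhlhb9 and Armcx1 show the widest gaps, with the pool labelled Mical2 at 4.81 and 4.04, and Armcx4 and Gprasp2 are under the floor on all 4 arrays.

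Armcx3, which links mitochondria to the Miro and Trak transport complex, was read by 2 probe sets. The main one read 11.31 in the empty-vector pool, 10.87 in the untreated pool, 10.23 in the pool labelled Mical2 and 10.17 in the pool labelled Mical3. The other read 10.61, 10.11, 9.61 and 8.81 in the same order. Both hairpin pools were below both controls on both probe sets. The log2 differences of the main probe set were -1.08 from the empty-vector pool and -0.64 from the untreated pool for the label Mical2, and -1.14 and -0.70 for the label Mical3, so it missed the 2-fold rule against the untreated pool. It is the member just outside that rule for the label Mical2, and for the label Mical3 it stands level with Armcx2 there, while Armcx1 at -1.15 is the member just inside. The second probe set passed that rule for the label Mical3, at -1.80 and -1.30, and missed it for the label Mical2, at -0.50 from the untreated pool.

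Armcx2, another mitochondrial member, had 3 probe sets. The main one read 12.24 in the empty-vector pool, 12.37 in the untreated pool, 11.74 in the pool labelled Mical2 and 11.54 in the pool labelled Mical3. All 3 probe sets put both hairpin pools below both controls and the pool labelled Mical3 lowest. Their log2 differences ran from -0.72 to -0.23 for the label Mical2 and from -0.97 to -0.42 for the label Mical3, all short of 2-fold.

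Armcx6 was at 6.45 in the empty-vector pool, 6.37 in the untreated pool, 5.85 in the pool labelled Mical2 and 6.24 in the pool labelled Mical3. Its log2 differences were -0.60 and -0.52 for the label Mical2 and -0.21 and -0.13 for the label Mical3, the latter smaller than the spread between probe sets. Armcx5 varied least of the members above the floor, from 5.79 to 6.04. Armcx4 was under the floor on all arrays (3.54 to 4.36), and no call could be made for it. Of the 3 members with the paired element, Armcx1 alone was called. All 5 other measured genes with the pair that reached the floor went uncalled in both hairpin comparisons. As 2.73% of all genes were called for the label Mical2 and 3.87% for the label Mical3, 5 genes are too few to tell.

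Gprasp1, which sends receptors such as the delta opioid receptor to lysosomes, was at 6.94 in the empty-vector pool, 6.87 in the untreated pool, 6.40 in the pool labelled Mical2 and 6.60 in the pool labelled Mical3. Its second probe set, under the floor on all arrays, went the other way, from 4.78 in the empty-vector pool and 4.91 in the untreated pool to 5.13 and 5.14. Gprasp2, whose promoter nearly repeats that of Bhlhb9, stayed between 3.71 and 3.81 on all arrays, so it gave no reading of a change. Armc10, the member on chromosome 5, was at 8.83 in the empty-vector pool, 9.17 in the untreated pool, 9.18 in the pool labelled Mical2 and 9.54 in the pool labelled Mical3. It was the 1 member above the floor that was not below the controls in the hairpin pools.

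**Figure D3:**
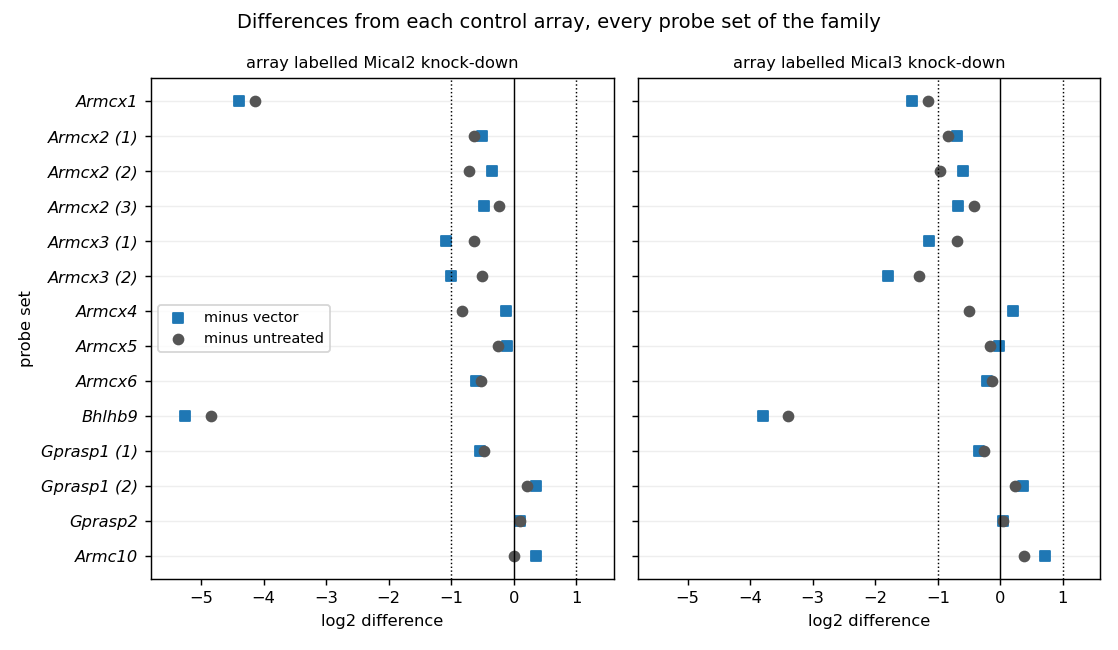
Log2 difference (x axis) of each hairpin array from the empty-vector pool (squares) and from the untreated pool (circles) for all 14 probe sets, with dotted lines at a 2-fold change; numbers in brackets tell probe sets of 1 gene apart. Bhlhb9 lies at -5.25 and -4.84 for the label Mical2 and at -3.80 and -3.39 for the label Mical3, and most other members lie between 0 and -1.

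Counting any difference, however small, 7 of the 8 members above the floor were below both controls in the pool labelled Mical2, beside 39.4% of all 12072 genes, and the same 7 in the pool labelled Mical3, beside 37.3% of 12011. They were Armcx1, Armcx2, Armcx3, Armcx5, Armcx6, Bhlhb9 and Gprasp1. The median log2 difference of all 10 members was -0.52 from the empty-vector pool and -0.57 from the untreated pool for the label Mical2, with 0.01 and 0.01 over all genes. For the label Mical3 it was -0.28 and -0.39, with 0.00 and 0.02 over all genes. The members were chosen with these values known, so the counts describe them only.

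None of the 8 members above the floor was called between the empty-vector pool and the untreated pool, where 5.83% of 11849 genes were called in either direction. By main probe sets the largest log2 difference among them was 0.44, for Armcx3, and Bhlhb9 differed by 0.41 and Armcx1 by 0.26, with a spread between probe sets of 0.28 for this comparison. Between the hairpin pools, where 7.53% of 11928 genes were called in either direction and 3.72% as lower for the label Mical2, Bhlhb9 and Armcx1 were called as lower for the label Mical2 and no member as higher. Armcx2 and Armcx3 went the other way, with the main probe sets higher for the label Mical2 by 0.20 and 0.06.

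The neighbours on the X chromosome were compared next, in the gene order of GRCm38.p6. The members form 2 groups, Armcx4, Armcx1, Armcx6, Armcx3 and Armcx2 and then Armcx5, Gprasp1, Gprasp2 and Bhlhb9, with 7 other measured genes between them. Of 27 measured neighbours, those 7 and 10 on each side, 12 reached the floor and none was called in any of the 4 comparisons. Over all genes, 2.73% were called for the label Mical2 and 3.87% for the label Mical3, so 12 genes are too few for the lack of calls to tell. In the pool labelled Mical2, 6 of these 12 were below both controls, beside 39.4% of all genes. In the pool labelled Mical3, 6 were so, beside 37.3%. The next measured gene after Bhlhb9, Bex2, was under the floor, and Hnrnph2, an RNA-binding protein gene next to the first group, was at 11.77 in the empty-vector pool, 11.75 in the untreated pool, 11.49 in the pool labelled Mical2 and 11.39 in the pool labelled Mical3.

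The zinc finger gene Zmat1, between the 2 groups, was lower than the empty-vector pool by more than 2-fold in both hairpin pools, with log2 differences of -1.44 for the label Mical2 and -1.19 for the label Mical3. From the untreated pool it differed by -0.65 and -0.40, so it was not called. Trmt2b, a tRNA methyltransferase gene, was alike, at -1.35 and -1.52 from the empty-vector pool and -0.53 and -0.70 from the untreated pool. Of the 609 other X-linked genes, 345 reached the floor in the comparison for the label Mical2, and 10 of them were called lower and 1 higher. For the label Mical3, 15 of 340 were called lower and 4 higher. In either direction that was 3.19% for the label Mical2 and 5.59% for the label Mical3, beside 2.73% and 3.87% over all genes. Called lower were 2.90% and 4.41%, beside 1.75% and 2.49% over all genes, so both shares were above those of all genes. Xist, the RNA that coats an inactive X chromosome, was between 4.71 and 4.88 on the arrays, under the floor.

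**Figure D4:**
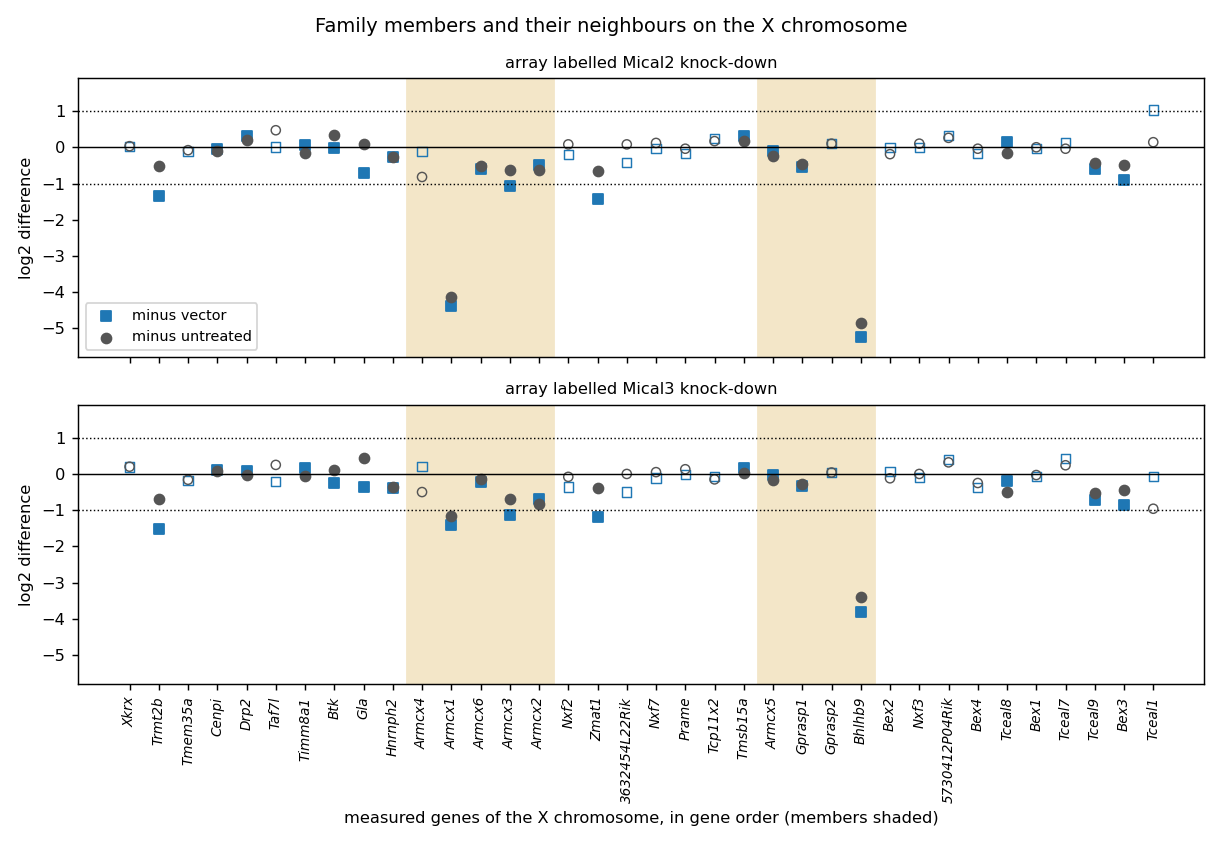
Log2 difference (y axis) from the empty-vector pool (squares) and the untreated pool (circles) for 36 measured genes of the X chromosome in gene order, members shaded and genes under the floor on all arrays drawn hollow. Only Armcx1 and Bhlhb9 drop beyond -2, and their direct neighbours lie near 0 or between 0 and -1.

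Of the 9 measured Bex and Tceal genes 3 reached the floor, and none was called. With 2.73% to 7.53% of all genes called in a comparison, 3 genes are too few for that to tell. Bex3, an adaptor of the neurotrophin receptor p75, read 13.63 in the empty-vector pool, 13.20 in the untreated pool, 12.72 in the pool labelled Mical2 and 12.76 in the pool labelled Mical3. Tceal9 read 14.21, 14.03, 13.60 and 13.50 in that order, and Tceal8 11.85, 12.15, 12.00 and 11.65. For Bex3 and Tceal9 both hairpin pools were below both controls, by less than 2-fold.

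Partners of the family were read from 2 lists. Of 22 mitochondrial transport and dynamics genes, 20 reached the floor and none was called in any comparison. Between 2.73% and 7.53% of all genes were called in a comparison, so 20 genes are too few for the lack of calls to tell. Rhot1, which encodes the Miro protein that Armcx3 binds, was between 9.69 and 9.97, and the adaptor gene Trak2 between 8.02 and 8.67. Oma1, a protease of the inner membrane, was at 7.18 in the pool labelled Mical2, 6.80 in the pool labelled Mical3, 8.15 in the empty-vector pool and 7.75 in the untreated pool, and Yme1l1, another protease there, at 10.27, 10.15, 9.57 and 9.94. Of 21 measured genes of endosomal receptor sorting, 20 reached the floor and none was called, again too few genes to tell. Arrb2, a beta-arrestin, was at 8.01 in the pool labelled Mical2, 8.56 in the pool labelled Mical3, 9.25 in the empty-vector pool and 8.50 in the untreated pool. Stam, an adaptor of the sorting complex, was at 8.48, 9.22, 9.71 and 8.76 in that order, and Arrb1, another beta-arrestin, at 6.91, 6.82, 7.87 and 7.02. For Arrb2 and Stam the pool labelled Mical3 lay between the controls.

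CREB and beta-catenin factors are known to act on the human ARMCX1 promoter. None of 11 such genes was called for either hairpin, beside 2.73% and 3.87% of all genes, so 11 are too few to tell. Creb1 was at 9.04 in the pool labelled Mical2, 9.08 in the pool labelled Mical3, 9.19 in the empty-vector pool and 9.60 in the untreated pool. Lef1, a partner of beta-catenin, was called lower in the empty-vector pool (5.02) than in the untreated pool (6.15), with 6.25 for the label Mical2 and 5.34 for the label Mical3. Among 12 measured genes of DNA methylation, 11 reached the floor and 1 was called against both controls, the methyltransferase gene Dnmt3b, at 6.56 in the pool labelled Mical3 with 7.66 in the empty-vector pool and 8.01 in the untreated pool. Mbd1, a reader of methylated DNA, was called between the hairpin pools, at 6.75 for the label Mical2 and 8.30 for the label Mical3.

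Because the family is abundant in brain, neuronal genes were read too. Of 14 markers between 2 and 4 reached the floor on an array, and their summed log2 level ran from 64.4 to 66.2. Rbfox3 (6.21 to 6.58) was above the floor on all 4 arrays. Tubb3 (5.17 to 6.33) and Elavl3 (5.31 to 5.90) were above it on all but the empty-vector array. Snap25, Nefl, Dcx and Elavl4, among others, were under the floor on all 4 arrays. Map2, a microtubule protein of dendrites, was called lower in the pool labelled Mical2, at 3.52 with 6.63 in the empty-vector pool and 5.93 in the untreated pool, and stood at 5.54 in the pool labelled Mical3.

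The arrays also differed in genes of other kinds. The summed log2 level of 8 fibroblast or mesenchymal markers was 61.8 in the empty-vector pool, 76.1 in the untreated pool, 74.0 in the pool labelled Mical2 and 60.3 in the pool labelled Mical3, which sets the controls apart from each other as far as the hairpin pools. Col1a2, a collagen gene, read 11.64 in the empty-vector pool, 14.49 in the untreated pool, 14.06 in the pool labelled Mical2 and 6.19 in the pool labelled Mical3, and Pdgfra 6.16, 10.40, 9.88 and 7.07. The sums ran from 44.8 to 51.9 for 7 pericyte or smooth muscle markers, from 30.1 to 33.0 for 6 leukocyte markers and from 30.5 to 37.5 for 6 epithelial markers. In the order empty-vector pool, untreated pool, label Mical2 and label Mical3, the levels of the other called genes of these lists were as follows. Col1a1 read 10.95, 12.99, 12.15 and 11.27, Col3a1 10.30, 13.29, 13.25 and 10.79, and the proteoglycan gene Dcn 10.52, 12.36, 12.27 and 12.79. Pdgfrb, the receptor gene of pericytes, read 8.13, 10.28, 10.71 and 3.55, and the actin gene Acta2 11.61, 13.67, 13.80 and 14.49. The keratin genes read 6.42, 8.27, 8.32 and 8.38 for Krt8 and 4.84, 5.85, 6.63 and 7.41 for Krt18. Krt14 was at 5.11, 6.07 and 7.28 on the first 3 of these arrays. In the pool labelled Mical3 Krt14 was also above both controls, at a level between 6.07 and 7.28. It was more than 2-fold above the empty-vector pool there but less than 2-fold above the untreated pool, so it missed the call. Among leukocyte markers 3 of 6 reached the floor on every array, Cd14 was called higher for the label Mical2 (5.75, 7.04, 8.26 and 6.39), and Ptprc was under the floor on all arrays. Of all these genes, Cd14 and Krt14 were called against both controls for the label Mical2, both higher, and Krt18 (higher), Col1a2 and Pdgfrb (both lower) for the label Mical3, while the rest were called between other arrays. The Y-linked gene Eif2s3y was at 3.14 in the empty-vector pool, 5.03 in the untreated pool, 6.04 in the pool labelled Mical2 and 8.75 in the pool labelled Mical3. Of 11 measured X inactivation genes and X/Y pairs, Eif2s3y was called higher for both hairpins and Kdm5d and Uty for the label Mical3, and Kdm5c, an X-linked demethylase gene, was called lower for the label Mical2 (8.05, with 9.13 and 9.07 on the controls). The part of such differences between the pooled cells in the levels of the family was not tested.

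The genes whose levels were most like those of Bhlhb9 and Armcx1 were found by the root mean square difference of the levels, each gene centred on its own mean, over the 4 arrays and 12166 genes that reached the floor at least once. Family members and predicted genes without a proper name were left out of the nearest genes named. For Armcx1 the nearest were Rab29, a small GTPase gene, at 0.30, then Slc25a20, the mitochondrial carnitine carrier gene, Mfsd13a and Fkbp11, each at 0.44. Kbtbd7 followed at 0.48. Slc25a20 was low on both of its probe sets in the pool labelled Mical2, with log2 differences of -4.24 and -3.82 from the empty-vector pool. The other probe sets of Fkbp11 differed from the empty-vector pool by -0.52 and 0.23 and those of Mfsd13a by 0.00 and -0.17, so these 2 profiles rest on 1 probe set each. The other probe sets of Kbtbd7 differed from the empty-vector pool by -2.55 and 0.02, the latter under the floor on all arrays, with -3.20 on the one used. Rab29, the nearest, was read by 1 probe set alone.

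For Bhlhb9 the nearest were Ndnf at 0.94, the homeobox gene Hoxb13 at 0.96, Plagl1, an imprinted zinc finger gene, at 0.98, then the actin-severing protein gene Scin, and Abi3bp at 1.03. Armcx1 itself was at 0.95 from Bhlhb9. With family members left out, none of the 5 genes nearest to each lies on the X chromosome, while Armcx1 does. The distances for Bhlhb9 were larger throughout than for Armcx1. The other probe sets of Plagl1 differed from the empty-vector pool by 0.47 and 0.18 in the pool labelled Mical2, with -2.92 on the one used. That of Ndnf, under the floor on all arrays, differed by -0.21, with -2.76 on the one used. The second probe set of Abi3bp, also under the floor on all arrays, differed by -0.48, with -2.49 on the one used. Hoxb13 and Scin were read by 1 probe set each.

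**Figure D5:**
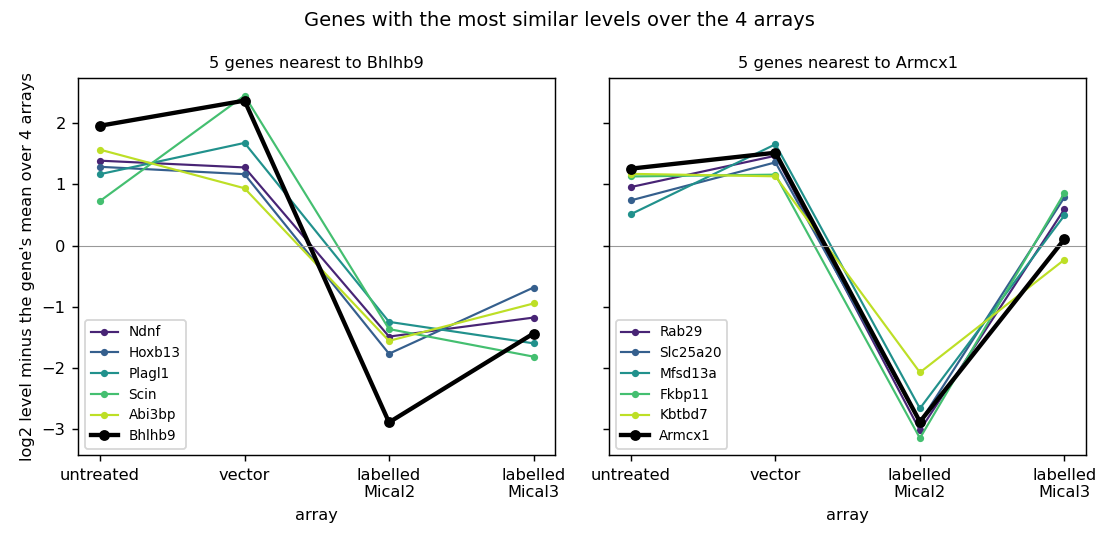
Log2 level minus the gene's own mean over the 4 arrays (y axis) for Bhlhb9 and Armcx1 (black). The 5 genes nearest to each outside the family are coloured, with 1 point per array and lines only to guide the eye. The genes near Armcx1 stand closer to the controls in the pool labelled Mical3, while those near Bhlhb9 stay low in both hairpin pools.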

How the data were processed

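The deposited values are log2 levels, 1 per probe set and array, made by the authors with RMA (background correction, quantile normalization and probe set summary) per the submitters' processing notes, with version and settings not given in the sources used here. Array medians lay between 5.40 and 5.44, and the values were used without further scaling. Of 45101 probe sets, 34945 have 1 symbol and 932 several in the platform annotation. Symbols were updated by Entrez identifier through a RefSeq table of GRCm38.p6, which matched 34741, and 18193 genes resulted. Samples were grouped by the condition in the labels. With 1 array per group the size rule replaced a test, and the number of arrays limits the precision. The rule was tested on simulated data. Members, lists and rules were chosen with earlier results of these data known. All members were named, and from each list genes called in a comparison or, failing that, up to 3 with the largest difference from the vector array, besides Rhot1, Trak2 and Creb1, known partners or regulators, and marker genes, chosen after their values were seen. Alternatives were the control, the fold, the floor, the probe set and the normalization. Promoter windows were read from a RefSeq table and aligned globally. Python 3.11.15, numpy 2.4.6, pandas 2.3.3, statsmodels 0.14.6 and matplotlib 3.10.9 were used.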

Additional observations from a re-analysis of the deposited data

How the results depend on the processing

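The count of 2 members called lower (Armcx1 and Bhlhb9) was within 1.5 times of itself under most alternatives for each hairpin against both controls. Without the _s_at, _x_at and _a_at probe sets 7 members stayed measured and the count was 1 in each of the comparisons that involve a hairpin array, Bhlhb9, because Armcx1 is read by such a probe set alone (the suffix _a_at marks transcripts of 1 gene). With the empty-vector pool as the only control, Armcx3 joined and the count was 3 for each hairpin. For the pool labelled Mical3, a mean over probe sets or the probe set of highest variance also called 3, with Armcx3, a 1.5-fold rule called 4 members, with Armcx2 and Armcx3 added, and a 3-fold rule 1, Bhlhb9. Between the hairpin pools, a 3-fold rule called 1, Armcx1, and a floor at the 75th percentile (8.01) called 0, since neither gene reaches it on those arrays. Between the vector and the untreated pool the count was 0 under every alternative run. Bhlhb9 minus the empty-vector pool lay between -5.29 and -4.62 for the label Mical2 and between -3.80 and -3.55 for the label Mical3 over 6 alternatives, and Armcx1 between -4.39 and -3.48 and between -1.41 and -1.29 over 5. Of 342 recomputed member differences 328 moved by less than the spread between probe sets, 14 by more, and no called difference changed sign. Leaving out a replicate was not possible with 1 array per group. No paired analysis was possible because each group has 1 array and the labels give no replicate numbers. Signal over background limits Armcx4, Gprasp2 and the lowest levels of Armcx1 and Bhlhb9.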
